A study of Mus musculus with 6 samples.

Results

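The respiratory chain of the inner mitochondrial membrane was described here through 87 genes, 8 encoded by mitochondrial DNA and 79 by the nucleus. They were chosen by gene symbol, as the subunits of complexes I to V, from protein-coding genes with at least 10 reads in every library. In all, 110 of the 55357 genes in the count files carried such a symbol, and 98 of these were protein coding. Of those 98, 13 were mitochondrially encoded and 85 nuclear, and 5 and 6 of them fell under the read minimum.

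The 6 libraries came from primary neuronal cultures of cortex and hippocampus of C57BL/6N mouse embryos at E18, each of which had received a lentivirus at DIV4 and was collected at DIV14. In 3 cultures the virus expressed a scrambled shRNA (shCtrl) and in 3 it expressed an shRNA against Pla2g4e (shPla2g4e), a phospholipase with N-acyltransferase activity. Both shRNAs were carried by the same vector, and a single sequence, sh2, was used for the knockdown, so that loss of Pla2g4e and other effects of that sequence cannot be told apart. The cultures are bulk samples that also hold glia, and a change in the number of cells of a type and a change in RNA per cell cannot be told apart. Nothing in the labels says whether replicates came from separate embryos or platings, so p-values measure the spread between these libraries only.

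Between 17054717 and 23570180 reads were counted per library, and genes of the mitochondrial genome took 2.75% to 3.79% of them. Values are CPM (read counts scaled to a common library size with edgeR's TMM factors). The test was the quasi-likelihood test of edgeR with Benjamini-Hochberg adjustment, and a gene was called at an adjusted p of at most 0.01. Pla2g4e itself was measured at 38.0, 35.1 and 35.4 CPM with shCtrl and at 21.8, 14.1 and 18.7 CPM with its shRNA, a log2 fold change of −0.99 (SE 0.13, edgeR adjusted p = 1.24e-04). Of the 10 pan-neuronal markers, 2 rose (3 with the replicate number as a block) and 3 fell, among them Tubb3 at 304 ± 37.6 and 94.9 ± 3.77 CPM (SD, n = 3). Of the 10 astrocyte markers, 3 fell (Aqp4, Gja1 and Slc1a2), or 7 with the block while 1 rose, and their summed level ranged from 2978 to 3805 CPM in shCtrl and from 2051 to 3244 CPM in shPla2g4e libraries. Of 10 proliferation markers, Top2a fell, as did Mki67 with the block, and none of the tested microglial (8), oligodendrocyte lineage (10) or mural and endothelial (8) markers passed the edgeR test, with 3, 1 and 1 at an unadjusted p under 0.05 and none called by DESeq2 or limma after voom. With the block, 1 oligodendrocyte lineage marker (Olig2) was called lower and 1 mural and endothelial marker (Col1a1) higher, and no microglial marker was called. The astrocyte list stood at a median log2 fold change of −0.27, the proliferation list at −0.61 and the pan-neuronal list at −0.10. Leaving out a library in turn moved these medians from −0.58 to −0.15, from −0.83 to −0.41 and from −0.18 to −0.02. The microglial list stood at −0.68 (−1.03 to −0.41 without each library), and the other lists were higher, mural and endothelial at 0.30 (0.14 to 0.55) and oligodendrocyte lineage at 0.17 (0.03 to 0.23). Summed levels in shCtrl and shPla2g4e averaged 25.06 and 24.97 CPM for the microglial list. They averaged 47.2 and 48.1 CPM for the mural and endothelial list and 602.8 and 636.8 CPM for the oligodendrocyte lineage. Microglial and mural and endothelial markers were near the floor, with medians of 0.57 and 0.23 CPM per kb of exon in shCtrl.

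The respiratory chain passes electrons from NADH through complex I, or from succinate through complex II, to coenzyme Q, complex III, cytochrome c and complex IV, and ATP synthase (complex V) uses the proton gradient that results. Every complex but complex II is assembled from subunits of both genomes, those of mitochondrial DNA being transcribed inside the organelle as long precursors from both strands and those of the nucleus being imported. Neurons depend on this pathway for ion pumping and synaptic transmission.

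The sequences in which the design, the counting and the called members can be read are given first. The sh2 target lies in the coding sequence of Pla2g4e, at nucleotides 1495 to 1513 of ENSMUST00000090071 (chr2:120182753-120182771, minus strand, GRCm38), and its complement is the guide, in which capitals mark the seed (bases 2 to 8).
sh2 target: ggaagatggtggtggccaa
sh2 guide: tTGGCCACcaccatcttcc

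An mRNA pairs with this seed where it holds GTGGCCA. Of the 79 nuclear members, 3 held it in the 3′ UTR, or 3.80%, against 11.95% of the 15705 tested genes that had an annotated 3′ UTR. The length of the 3′ UTR, on which such a share depends, was not taken into account. The 3 sites are shown with the match in capitals: that of Atp5d (chr10:80145610-80145639, plus strand), that of Ndufb4 (chr16:37647422-37647451, minus strand) and that of Cox7a2l (chr17:83502301-83502330, minus strand), all on GRCm38.
Atp5d: agtgggctgaaGTGGCCAccaggggtcagc
Ndufb4: gagtgttacctGTGGCCAgctggggtgcgc
Cox7a2l: ccagctcattcGTGGCCAgccgtgctcagg

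The log2 fold changes of these members were −0.22 for Atp5d, 0.25 for Ndufb4 and −0.19 for Cox7a2l, and in the TMM-scaled fit without the replicate block none passed the test. The mitochondrially encoded subunits were left out of this count, as they have no annotated 3′ UTR.

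Reads that map to several places had been left out of the counts, and the nuclear genome holds copies of mitochondrial DNA, so the uniqueness of each mitochondrial transcript was examined before its level was read. An array of such copies on chromosome 1 (24650616 to 24655278, GRCm39) holds 7 annotated pseudogenes. Gm28661 matched mt-Co2 over 681 nt with no difference, and the same held for Gm10925 and mt-Atp6 over 678 nt, for Gm28437 and mt-Co3 over 783 nt and for Gm10222 and mt-Nd4l over 294 nt. Gm28438 differed from mt-Nd3 at a single base of 345. That base is in capitals in the first 60 nt of both transcripts (GENCODE vM21).
mt-Nd3: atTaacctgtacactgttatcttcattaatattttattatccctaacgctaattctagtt
Gm28438: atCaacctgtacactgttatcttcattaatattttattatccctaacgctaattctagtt

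Of all 50-base stretches in its transcript, mt-Co2 shared 100% with another annotated gene, mt-Co3 99.9%, mt-Atp6 99.5%, mt-Nd4l 98.8% and mt-Nd3 98.0%. These 5 genes had 6 to 25, 20 to 34, 8 to 32, 0 to 7 and 0 to 4 reads per library, and mt-Co3 was the only one of them to reach the minimum of 10. Where in these genes the reads lay was not examined, and their counts, that of mt-Co3 included, were not read as levels of their RNA. mt-Nd4 and mt-Co1 shared 62.2% and 51.1% of their stretches, and mt-Nd2 and mt-Nd5 shared 8.19% and 7.61%. Part of the mt-Nd4 and mt-Co1 transcripts may therefore have been uncountable and their levels too low. This rests on the chosen length of 50 bases and was not tested. mt-Nd1, mt-Nd6 and mt-Cytb shared none. mt-Atp8, with 0 to 3 reads, also shared none with an annotated gene, and 21.1% of its 204 bases overlap mt-Atp6. It lies between mt-Co2 and mt-Atp6, and the chromosome 1 stretch between the copies of these genes (24653732 to 24653966) was not compared with it. Gm28438 had 165 to 355 reads per library and the 6 other copies on chromosome 1 at most 57. Among nuclear members, 34 of 79 shared no stretch and 16 shared over 20%, with Atp5l at 84.8% the highest.

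**Figure D1:**
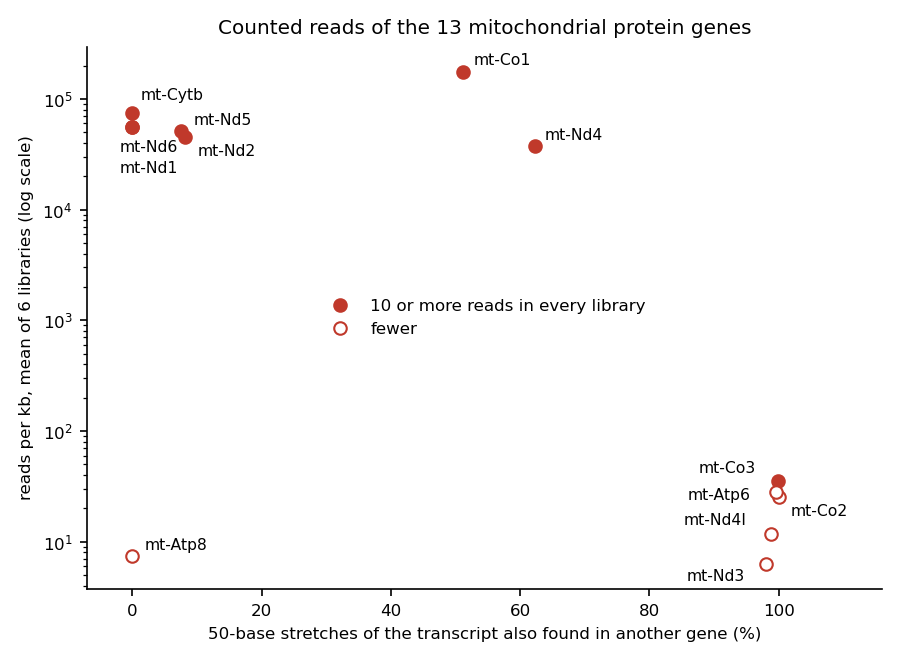
Reads per kb (mean of 6 libraries, log scale) of the 13 mitochondrial protein genes against the percentage of their 50-base stretches found in another gene. The 7 genes with shares of 0 to 62.2% other than mt-Atp8 form the upper cloud, and mt-Atp8 and the 5 genes with shares of 98.0% or more lie several powers of 10 below them.

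Levels per length were divided by the whole transcript, so those of mt-Nd4 and mt-Co1 cannot be placed exactly among the others. In shCtrl libraries mt-Co1, the catalytic core of complex IV, had the highest level at 8045 ± 981 CPM per kb (SD, n = 3), and mt-Cytb, the mitochondrially encoded subunit of complex III, had 3582 ± 481 CPM per kb. mt-Nd1, mt-Nd6, mt-Nd5 and mt-Nd2 of complex I lay below mt-Cytb, between 2660 ± 441 (mt-Nd1) and 2009 CPM per kb (mt-Nd2). The libraries of mt-Cytb did not overlap with those of mt-Nd1, and those of neighbours among these 4 genes overlapped. mt-Nd4 had 1714 ± 237 CPM per kb of its whole length and 4538 per kb of its unshared stretches, on which scale it stood above mt-Cytb and mt-Co1 was still the highest, and mt-Nd5 and mt-Nd6 changed places. mt-Nd6 is encoded on the opposite strand from the rest, and the counting used no strand, so that its reads can include RNA of the other strand.

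Nuclear subunits were far less abundant per length, with a median of 41.0 CPM per kb of exon in shCtrl against 2509 for the 7 mitochondrial members other than mt-Co3, or 2660 per kb of unshared stretches. The highest nuclear member in shCtrl was Ndufc2 in complex I (84.0 CPM per kb), Sdha, the flavoprotein that oxidizes succinate, in complex II (76.2), Uqcr11 in complex III (121), Cox8a in complex IV (299.7) and Atp5a1, the alpha subunit of the catalytic head, in complex V (238). Only Atp5a1 had no shCtrl library that overlapped with those of the next gene in its complex. In shPla2g4e libraries Sdhd (86.0) stood above Sdha (76.7) and Uqcr10 (124.1) above Uqcr11 (123.5). Per kb of unshared stretches in shCtrl, Cox6a1 (335.9) stood above Cox8a. On that scale Ndufa13, with 69.9 CPM per kb of exon and 28.5% of its stretches shared, stood above Ndufc2, which shared none. Uqcr11, which shared 10.9%, then stood above Uqcr10, which shared none, in both groups. Atp5l had 1.34 CPM per kb, the lowest value of complex V, and was the nuclear member with the most shared stretches. Exon lengths here are those of all annotated exons of a gene together, which lowers the value of genes with many alternative exons.

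The comparison of the groups asked whether knockdown of Pla2g4e changed the RNA of the respiratory chain, and whether both genomes moved alike. Of the 87 members, a single nuclear gene was called, Ndufa13, which fell. Among all 21876 genes tested, 6.49% were called, and among the 15312 genes with at least 10 reads in every library 8.97% were called. No mitochondrially encoded member was called by edgeR, none had an unadjusted p under 0.05, and limma after voom and DESeq2 called none. With the block alone none was called either, and with the block and scaling by library size together 5 were called, all higher (mt-Nd2, mt-Nd4, mt-Nd5, mt-Nd6 and mt-Co1), where 9.15% of all genes were called higher. That scaling, without the block, raised the median of all genes to 0.103 on the log2 scale. The libraries of the groups did not overlap for 18 members, all nuclear, 12 higher and 6 lower in shPla2g4e, against 15.5% higher and 14.6% lower among all genes. The 95% interval of the log2 fold change lay within ±1 for 86 of 87 members, the exception being Ndufa4l2, and within ±0.5 for 80.

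**Figure D2:**
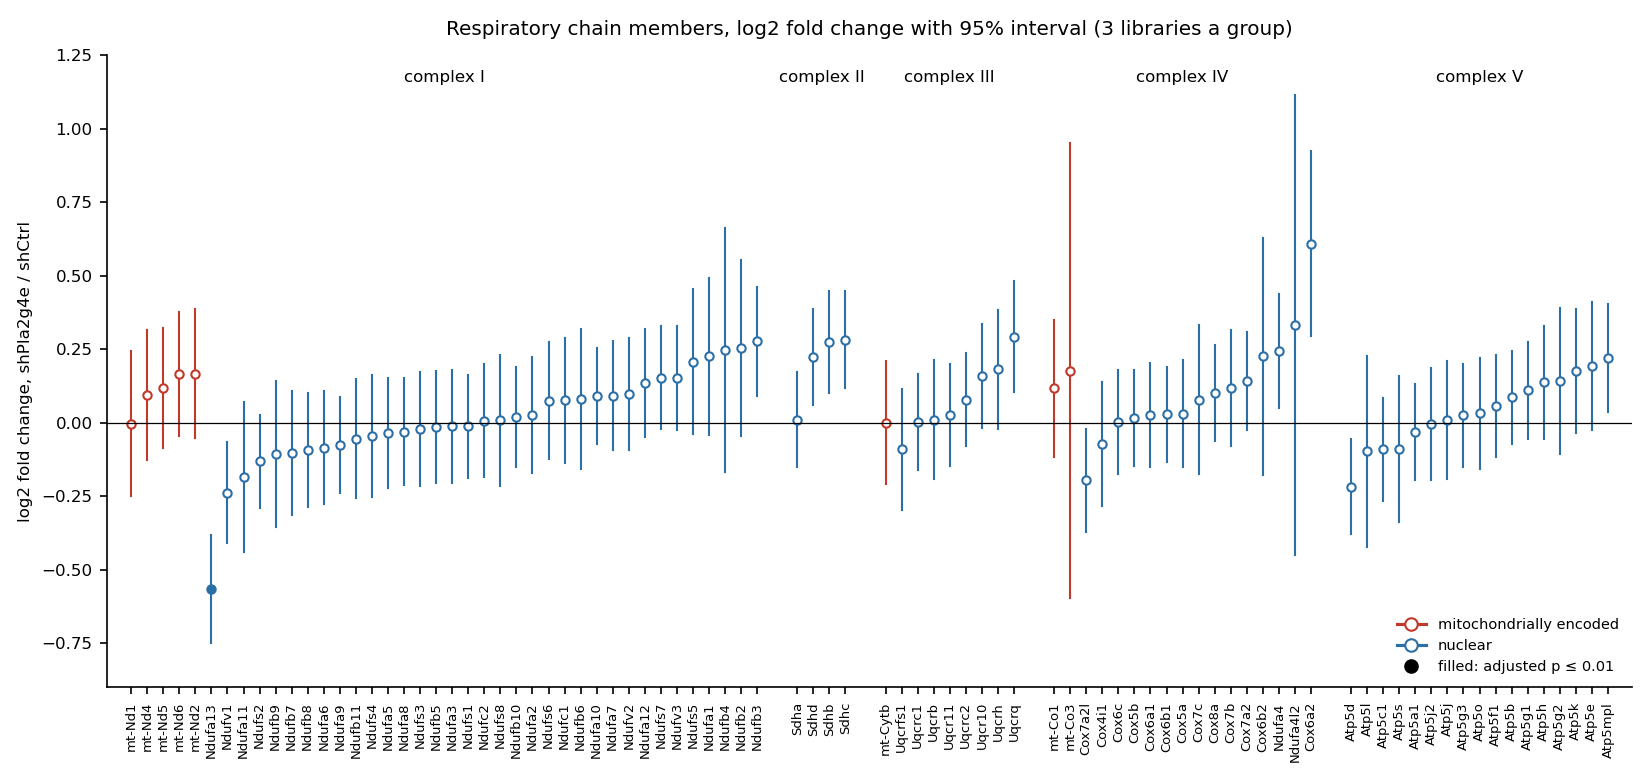
Log2 fold change (shPla2g4e over shCtrl) of all 87 members by complex, with 95% intervals; mitochondrially encoded members are red and nuclear members blue. Ndufa13 in complex I, at −0.565, is the only filled point (adjusted p at most 0.01), and Cox6a2 in complex IV, at 0.61, is the highest.

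Of the mitochondrially encoded genes, mt-Nd2, a core subunit of the proton-pumping arm of complex I, had 1829, 1977 and 2450 CPM in shCtrl and 2393, 2149 and 2486 CPM in shPla2g4e libraries. The groups overlapped, and the log2 fold change was 0.17 (SE 0.10, 95% interval −0.05 to 0.39, edgeR adjusted p = 0.341). mt-Nd6, another subunit of that arm, gave 1158, 1244 and 1504 CPM and 1509, 1323 and 1550 CPM, with a log2 fold change of 0.17 (95% interval −0.05 to 0.38). The highest shCtrl library of each gene stood above the lowest shPla2g4e library. By replicate number, mt-Nd2, mt-Nd5 and mt-Nd6 were higher in shPla2g4e in 3 of 3 pairs, and with the block their edgeR adjusted p was 0.0216, 0.122 and 0.0291, none past 0.01.

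mt-Co1 had 11790, 11340 and 14160 CPM in shCtrl and 14130, 11330 and 15000 CPM in shPla2g4e libraries (log2 fold change 0.12, 95% interval −0.12 to 0.35). mt-Cytb had 3679, 3893 and 4721 CPM and 4032, 3823 and 4438 CPM, and its group means were both 4098 CPM. mt-Nd1 had 2223, 2391 and 3023 CPM against 2503, 2216 and 2901 CPM, with an interval of −0.25 to 0.24. The groups overlapped for all 3 genes. The log2 fold changes of mt-Nd4 and mt-Nd5 were 0.10 and 0.12, and that of mt-Co3, from 20 to 34 reads, was 0.18 with an interval of −0.60 to 0.95.

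The mitochondrial genes moved together between replicates. In both groups replicate 3 was the highest library for 7 of the 7 genes other than mt-Co3. In shPla2g4e cultures replicate 2 was the lowest for 7 of 7, and in shCtrl cultures replicate 1 was the lowest for 6 of 7. The summed nuclear members were likewise highest in replicate 3 of both groups (7832 and 7947 CPM). The summed astrocyte markers were also highest in replicate 3 of both groups (3805 and 3244 CPM), as were those of the mural and endothelial list (69.1 and 79.2 CPM) and the sums of the mitochondrial and cytosolic ribosomal protein lists. The part of these genes in the pattern was not tested. The spread of the mitochondrial median between libraries was 0.18 on the log2 scale (SD), against 0.07 for the nuclear median. The 12S and 16S ribosomal RNAs of the organelle (mt-Rnr1 and mt-Rnr2) took 0.205% to 0.279% of reads and were also highest in replicate 3 of each group.

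**Figure D3:**
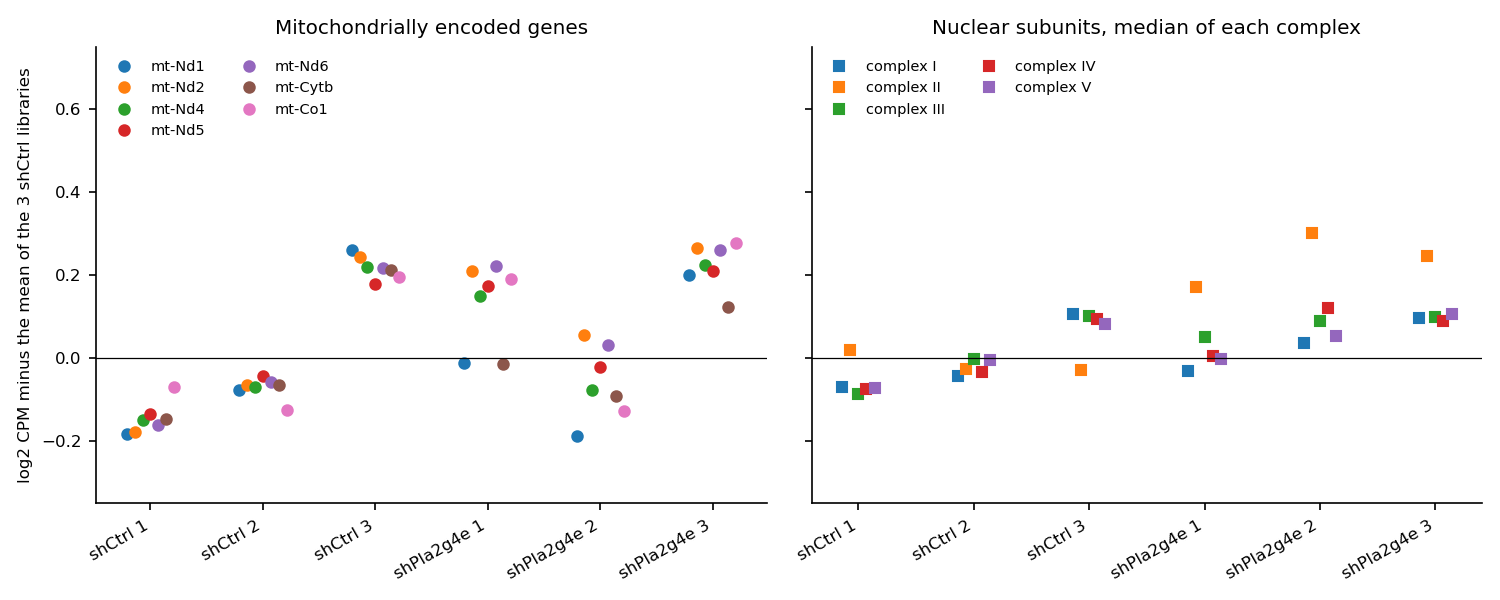
Log2 CPM minus the mean of the 3 shCtrl libraries for the 7 mitochondrial genes other than mt-Co3 (left) and the median of the nuclear subunits of each complex (right), by library. On the left replicate 3 of each group is the highest and the groups overlap; on the right only complex II has all 3 shPla2g4e libraries (0.17, 0.30 and 0.25) above all shCtrl libraries (0.02, −0.03 and −0.03).

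The median log2 fold change was 0.12 over the 8 mitochondrial members and 0.03 over the 79 nuclear ones, beside 0.03 over all genes tested and −0.0027 over the 15312 of them that reached the read minimum set for members. Without mt-Co3, of 7 mitochondrial members 6 were higher and 1 lower, the 6 including mt-Cytb at 0.0001, and of the nuclear members 53 were higher and 26 lower, a split that became 63 and 16 with scaling by library size alone. Leaving out a library in turn moved the mitochondrial median between 0.03 and 0.21 and the nuclear median between 0.0098 and 0.0719. The mitochondrial median was above the nuclear one by 0.09, and by 0.02 to 0.16 without each library, and the difference was not tested. The ratio of the summed CPM of mitochondrial members other than mt-Co3 to that of nuclear members was 3.65, 3.67 and 4.27 in shCtrl and 4.27, 3.56 and 4.28 in shPla2g4e libraries. The groups overlapped, and the ratio was higher in shPla2g4e in 2 of 3 pairs.

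By complex, the ratio in complex I was 6.45 ± 0.54 in shCtrl and 7.03 ± 0.53 in shPla2g4e (SD, n = 3), in complex III 5.57 ± 0.44 and 5.28 ± 0.27, and in complex IV 8.38 ± 0.45 and 8.74 ± 1.09. The mitochondrial sum held mt-Nd1, mt-Nd2, mt-Nd4, mt-Nd5 and mt-Nd6 in complex I, mt-Cytb alone in complex III and mt-Co1 alone in complex IV. Shared stretches of mt-Nd4 and mt-Co1 may lower these sums, so the ratios are not those of whole complexes. The group means differed in direction between complexes, and in each of them the libraries of the groups overlapped. By pair, the ratio was higher in shPla2g4e in 3 of 3 pairs in complex I, in 1 of 3 in complex III and in 2 of 3 in complex IV. No ratio was formed for complex II, which has no mitochondrially encoded subunit, or for complex V, whose mitochondrial genes mt-Atp6 and mt-Atp8 were under the read minimum.

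Ndufa13 (ENSMUSG00000036199, chromosome 8, 70346830 to 70355208, minus strand, GRCm39) encodes an accessory subunit of complex I, also known as GRIM-19, that is needed for the assembly of the complex. It had 80.6, 86.6 and 95.2 CPM in shCtrl libraries and 55.1, 60.4 and 62.0 CPM in shPla2g4e libraries. Every shPla2g4e library was below every shCtrl library, and 67.6% of the shCtrl mean remained. The log2 fold change was −0.565 (SE 0.087, 95% interval −0.75 to −0.38, edgeR adjusted p = 0.000432), and leave-one-out values ran from −0.62 to −0.50. Of its exon bases, about 30% lie opposite exons of another gene, and 27.1% of its 50-base stretches are in Tssk6, whose own counts were 19 to 35 reads per library. Ndufa13 had no seed match in its 3′ UTR or coding sequence.

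The other 34 nuclear members of complex I had log2 fold changes from −0.24 to 0.28, and the median over all 35 was 0.01 (−0.04 to 0.05 without each library). With the replicate numbers as a block, which the pairing of the libraries allows, Ndufb3 and Ndufv1 were called as well. Ndufb3, an accessory subunit of the membrane arm, had 39.0, 37.2 and 40.1 CPM in shCtrl and 45.6, 45.2 and 50.4 CPM in shPla2g4e libraries (log2 fold change 0.28, edgeR adjusted p = 0.0467, with the block 0.00900). Ndufv1, the subunit that binds NADH and FMN, had 112.6, 101.7 and 109.8 CPM and 96.0, 85.4 and 93.7 CPM (−0.24, edgeR adjusted p = 0.0676, with the block 0.00609). Neither gene's groups overlapped, and these small differences went in opposite directions. Over all genes the block called 6.50% up and 9.02% down, and over the members 6 up and 3 down.

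Complex II, all of whose 4 subunits are nuclear, had the highest median log2 fold change of the complexes, 0.25, and stayed between 0.22 and 0.28 without each library. Sdhb, the iron-sulfur subunit, had 98.7, 96.7 and 107.3 CPM in shCtrl and 112.7, 128.1 and 125.5 CPM in shPla2g4e libraries (log2 fold change 0.27, SE 0.08, edgeR adjusted p = 0.0375, with the block 0.00135). Sdhc, a membrane anchor that binds heme, had 98.6, 92.1 and 94.9 CPM and 111.3, 121.8 and 114.3 CPM (0.28, SE 0.08, edgeR adjusted p = 0.0241, with the block 0.00107). Sdhd, the other anchor, had 89.7, 95.02 and 87.2 CPM and 102.9, 108.7 and 106.1 CPM (0.22, SE 0.08, edgeR adjusted p = 0.0681, with the block 0.0105). For these 3 genes every shPla2g4e library was above every shCtrl library, and in the TMM-scaled fit without the block none was called. With scaling by library size alone Sdhc was called (edgeR adjusted p = 0.00499). Sdha had 331.1, 313.4 and 298.6 CPM against 312.5, 319.3 and 318.1 CPM, a log2 fold change of 0.01 with an interval of −0.15 to 0.17. The intervals of Sdhb (0.10 to 0.45) and Sdhc (0.12 to 0.45) overlap that of Sdha, and the difference between subunits was not tested.

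**Figure D4:**
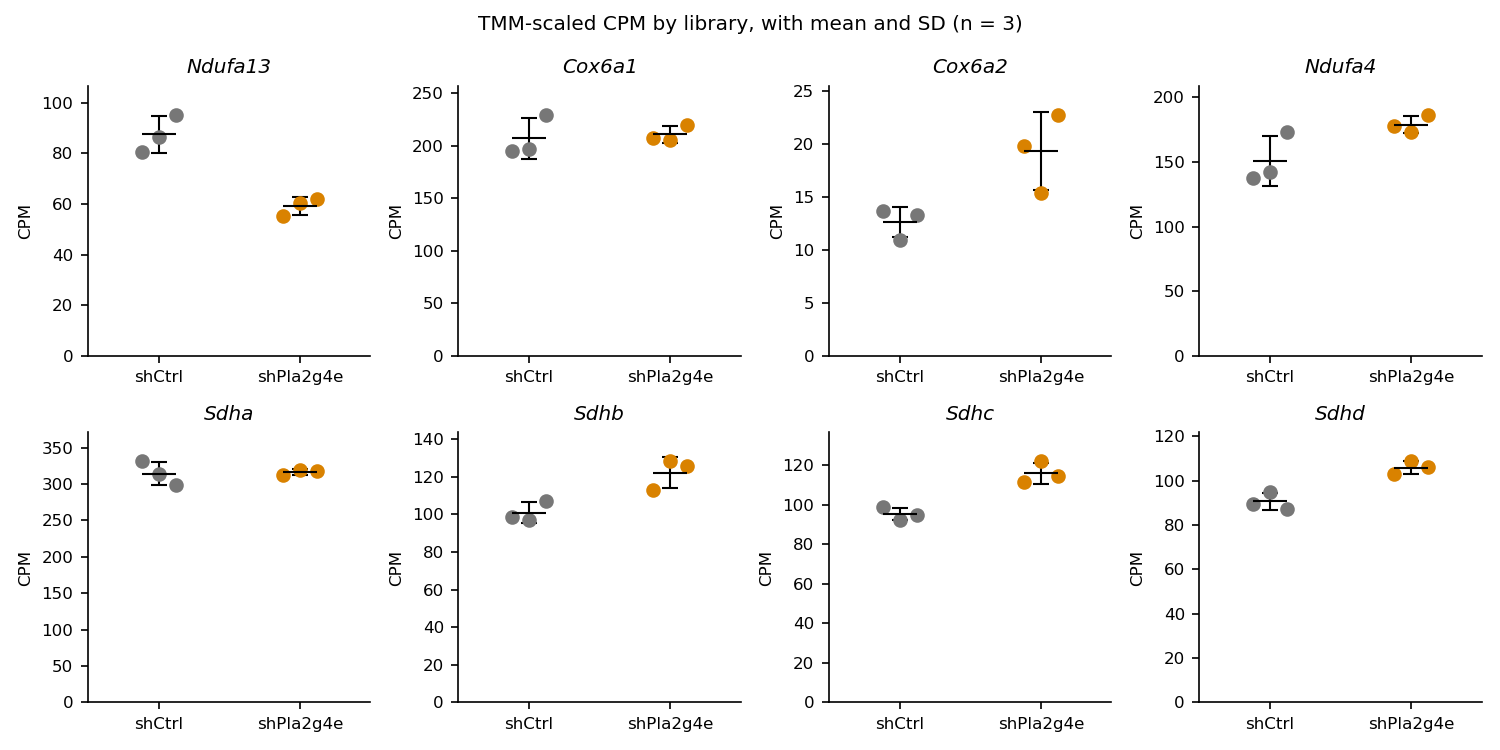
TMM-scaled CPM of 8 nuclear members in each library (points), with mean and SD (n = 3), the y axes starting at 0. Ndufa13 is lower in all 3 shPla2g4e libraries, Cox6a2, Sdhb, Sdhc and Sdhd are higher in all 3, and Cox6a1, Ndufa4 and Sdha overlap.

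In complex III the median over 8 nuclear members was 0.05 (0.02 to 0.08 without each library). Uqcrq, a small subunit next to cytochrome b, had 65.0, 66.3 and 74.8 CPM in shCtrl and 76.2, 86.5 and 89.9 CPM in shPla2g4e libraries, with no overlap (log2 fold change 0.29, edgeR adjusted p = 0.0412, with the block 0.00115). Uqcr11 had a log2 fold change of 0.03 with an interval of −0.15 to 0.20.

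In complex IV the median over 15 nuclear members was 0.08 (0.01 to 0.12 without each library). Cox6a2, the heart and skeletal muscle form of subunit VIa, had 13.6, 10.97 and 13.3 CPM in shCtrl and 19.8, 15.4 and 22.7 CPM in shPla2g4e libraries. The groups did not overlap, and the log2 fold change was 0.61 (SE 0.15, 95% interval 0.29 to 0.92, edgeR adjusted p = 0.0123, with the block 2.74e-05). Over the alternatives its adjusted p ranged from 1.41e-05 to 0.0777, on both sides of the threshold of 0.01. Its ubiquitous counterpart Cox6a1 had 195.2, 196.3 and 229.1 CPM and 207.3, 205.0 and 219.6 CPM, a log2 fold change of 0.03 (95% interval −0.15 to 0.20).

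Ndufa4, once assigned to complex I and now counted with complex IV, had 137.7, 142.1 and 173.3 CPM in shCtrl and 177.6, 173.1 and 186.5 CPM in shPla2g4e libraries. Its groups overlapped by a single pair of libraries, and its log2 fold change was 0.25 (edgeR adjusted p = 0.0954, with the block 0.00221, and without shCtrl replicate 3 and without the block 0.00853). Its paralog Ndufa4l2 had 0.71 to 1.94 CPM. Cox4i1, whose product is the regulatory subunit IV, had a log2 fold change of −0.07, and its hypoxia-linked paralog Cox4i2 had 6 to 20 reads. Cox6b1 and its testis form Cox6b2 had log2 fold changes of 0.03 and 0.23, with 1 high library (25.6 CPM in shPla2g4e replicate 2) behind the latter. Cox8a (0.10), Cox7a2 (0.14) and Cox7a2l (−0.19), a factor of supercomplexes, were not called, and the muscle forms Cox7a1 and Cox8b had 6 to 16 and 0 reads.

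In complex V the median over 17 nuclear members was 0.03 (−0.0025 to 0.0909 without each library). Atp5d, the delta subunit of the central stalk, had 170.3, 172.7 and 171.4 CPM in shCtrl and 139.5, 148.3 and 154.8 CPM in shPla2g4e libraries, with no overlap (log2 fold change −0.22, edgeR adjusted p = 0.074, with the block 0.00811). Atp5b and Atp5a1, the beta and alpha subunits of the catalytic head, had log2 fold changes of 0.09 and −0.03, with intervals of −0.07 to 0.24 and −0.19 to 0.13. The 3 genes that encode subunit c of the proton-driven ring, Atp5g1, Atp5g2 and Atp5g3, gave 0.11, 0.14 and 0.03, and none was called.

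Promoters of the nuclear members were read from RefSeq (GRCm38.p6) as the 250 bases before and 50 after a transcription start, in 69 windows that matched 64 members. NRF1, GABPA (NRF-2) and YY1 are transcription factors known for binding at genes of the respiratory chain. Their motifs were searched on both strands, and matches of different motifs may overlap. The NRF1 motif, of which Sdha shows 3 matches, was in 26.1% of member windows and 4.603% of all 32851, CCGGAAG (GABPA) in 23.2% and 8.86%, and ATGGCGG (YY1) in 15.9% and 4.05%. Cox6a2 and Sdhc had no window. The windows of the called Ndufa13 and of the other complex II subunits (the complex with the highest median) are shown, with motif matches in capitals. They lie at chr8:69901971-69902270, chr13:74350191-74350490, chr4:140961021-140961320 and chr9:50603800-50604099, on the minus strand except for Sdhb.
Ndufa13: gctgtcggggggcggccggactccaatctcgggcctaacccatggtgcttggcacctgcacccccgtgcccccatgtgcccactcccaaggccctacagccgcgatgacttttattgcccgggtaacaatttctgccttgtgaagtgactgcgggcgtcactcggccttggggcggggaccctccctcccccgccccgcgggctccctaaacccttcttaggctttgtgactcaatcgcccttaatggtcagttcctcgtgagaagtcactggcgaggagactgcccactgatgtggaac
Sdha: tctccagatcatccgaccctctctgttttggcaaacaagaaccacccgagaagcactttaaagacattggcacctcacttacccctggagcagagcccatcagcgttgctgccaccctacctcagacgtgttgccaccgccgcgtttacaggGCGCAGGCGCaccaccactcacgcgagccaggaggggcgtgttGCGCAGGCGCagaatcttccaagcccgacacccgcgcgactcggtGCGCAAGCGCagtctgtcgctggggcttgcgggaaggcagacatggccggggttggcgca
Sdhb: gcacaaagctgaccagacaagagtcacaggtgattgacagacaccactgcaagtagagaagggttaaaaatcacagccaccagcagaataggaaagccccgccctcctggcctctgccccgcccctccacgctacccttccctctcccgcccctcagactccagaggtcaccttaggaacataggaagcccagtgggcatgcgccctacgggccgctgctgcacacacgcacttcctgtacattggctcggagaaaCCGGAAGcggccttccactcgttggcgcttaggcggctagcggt
Sdhd: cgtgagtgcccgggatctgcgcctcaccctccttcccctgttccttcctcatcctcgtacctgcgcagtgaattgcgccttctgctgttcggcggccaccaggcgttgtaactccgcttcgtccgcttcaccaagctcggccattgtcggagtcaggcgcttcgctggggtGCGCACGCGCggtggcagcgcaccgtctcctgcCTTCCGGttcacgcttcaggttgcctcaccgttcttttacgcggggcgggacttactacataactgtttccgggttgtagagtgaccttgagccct

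The Ndufa13 window held none of the 3 motifs, that of Sdha held 3 NRF1 matches, that of Sdhb 1 GABPA match and that of Sdhd 1 match each of NRF1 and GABPA. A match is a run of letters and was not tested for binding.

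Genes that assemble, express or feed the respiratory chain were described in the same way, and their counts stand beside the 6.49% of all genes that were called, or 6.50% up and 9.02% down with the block. The share called was below 6.49% in each list except that of the electron carriers, where it was 2 of 19 genes. Of 48 tested assembly factors 2 rose and none fell, or 4.17% (median log2 fold change 0.05, and 0.01 to 0.07 without each library), and with the block 2 rose and 1 (Ttc19) fell. Cox19, a copper-related assembly factor of complex IV, had 51.0, 47.4 and 49.6 CPM in shCtrl and 70.7, 67.1 and 62.9 CPM in shPla2g4e libraries (0.44, SE 0.08, edgeR adjusted p = 0.00202). Ecsit, needed for the assembly of complex I, had 22.3, 25.1 and 23.0 CPM and 31.0, 32.3 and 31.6 CPM (0.43, SE 0.10, edgeR adjusted p = 0.00707). The groups did not overlap for either gene.

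Of 31 genes of mitochondrial DNA replication and expression none rose and 1 fell, or 3.23% (median 0.11, and 0.06 to 0.15 without each library). This was Grsf1, an RNA-binding protein of mitochondrial RNA granules, with 90.3, 97.5 and 95.6 CPM in shCtrl and 66.8, 74.1 and 70.8 CPM in shPla2g4e libraries (−0.42, SE 0.08, edgeR adjusted p = 0.00214). Of 78 mitochondrial ribosomal proteins 1 rose and 2 fell, or 3.85% (median 0.02, and 0.0029 to 0.0589 without each library), and with the block 3 rose and 4 fell, or 3.85% and 5.13%. The log2 fold changes were 0.44 for Mrpl17, −0.67 for Mrpl46 and −0.45 for Mrpl9. Of 19 electron carriers and related enzymes 1 rose and 1 fell (median 0.01, and −0.03 to 0.09 without each library), and with the block 2 rose (Coq8a also) and 1 fell. Gpd2, the mitochondrial glycerol-3-phosphate dehydrogenase that passes electrons to coenzyme Q, had 123.8, 128.8 and 109.9 CPM in shCtrl and 86.0, 85.3 and 84.9 CPM in shPla2g4e libraries (−0.50, SE 0.08, edgeR adjusted p = 0.000683). Coq10b, a coenzyme Q-binding protein, had a log2 fold change of 0.50 (edgeR adjusted p = 0.0058).

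None of 14 genes of the tricarboxylic acid cycle (median −0.07, and −0.07 to −0.03 without each library) and none of 11 regulators of mitochondrial biogenesis (median −0.13, and −0.16 to −0.11) was called by edgeR, 3 in each list having an unadjusted p under 0.05. DESeq2, which called 8.69% of all genes, called 2 of the former and none of the latter, and limma after voom, which called 6.53%, called 1 and none. With scaling by library size alone the median was 0.0089 for the cycle genes and −0.05 for the regulators, beside 0.103 for all genes. With the block 2 genes of the cycle (Cs and Idh3a) were lower, or 14.3% beside 9.02% of all genes, and 1 regulator (Nfe2l1) was higher, or 9.09% beside 6.50%. For the cytosolic ribosome, 88 proteins were tested, of which none rose and 3 fell, or 3.41% (median −0.06, and −0.11 to 0.01 without each library), and with the block 9 fell, or 10.2% beside 9.02% of all genes. DESeq2 called 7 of the 88. With scaling by library size alone their median was 0.01, with 48 higher against 26 under TMM. The log2 fold changes were −1.14 for Rpl41, −0.52 for Rpl22 and −0.41 for Rps7. The name pattern first used for this list also took in kinases of the Rps6k family, with which 1 of 97 genes rose and 4 fell.

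**Figure D5:**
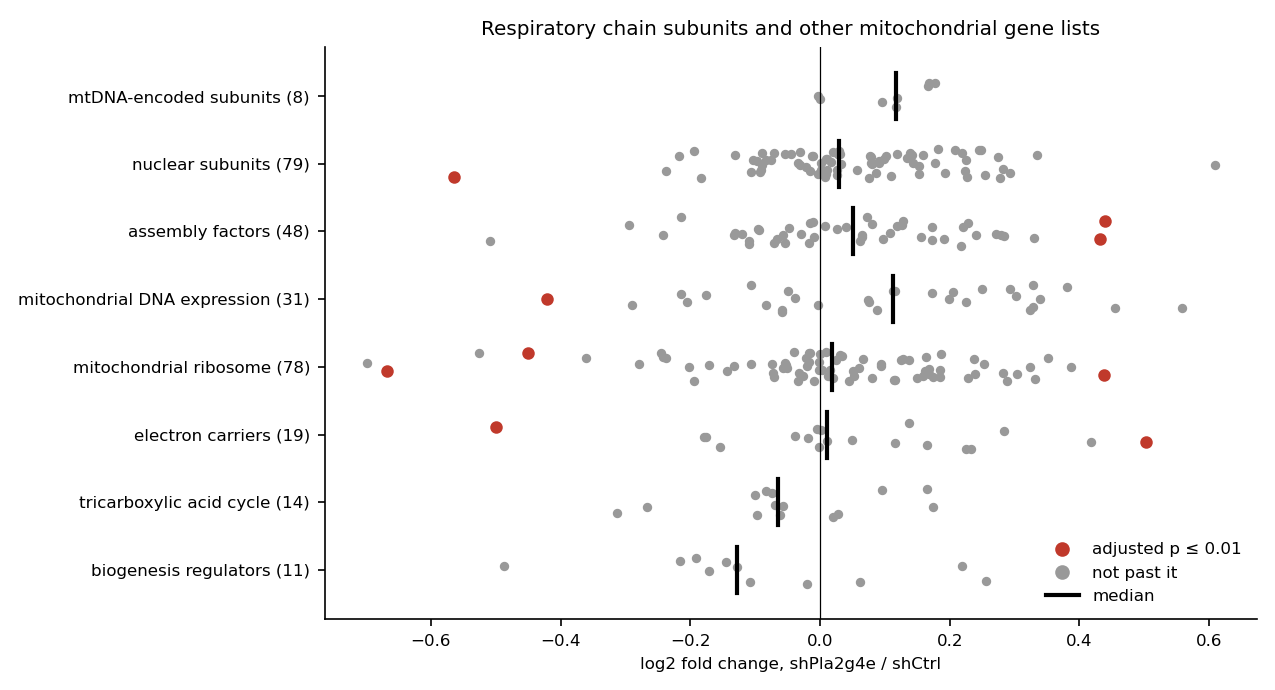
Log2 fold change of each gene in 8 lists (gray points), with genes called at an adjusted p of at most 0.01 in red, medians as black bars and the number of genes in parentheses. The medians lie between −0.13 and 0.12, and called genes lie on both sides of 0.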

How the data were processed

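RNA-seq libraries from poly(A) RNA (TruSeq Stranded) of 3 shCtrl and 3 shPla2g4e cultures were analysed. The authors aligned the reads with STAR (2.7.0d in the submitters' processing notes) and counted them with featureCounts 1.6.0, and they deposited raw counts per gene without normalization, 1 file per library. The count headers name GENCODE vM28 and GRCm39, and the methods mm10 and release M18. The counting record shows no strand or read-pair option, so both reads of a pair count separately and reads of overlapping genes were lost. Samples were grouped by the treatment in the labels.

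Symbols and biotypes came from GENCODE vM21 (GRCm38) and matched 52081 of 55357 gene IDs. edgeR 4.0.16 in R 4.3.3 (TMM, glmQLFit, glmQLFTest) was run on 21876 genes (6 or more reads in 1 or more libraries), with Benjamini-Hochberg adjustment and a threshold of 0.01. The fit was tested on simulated counts with known changes. Alternatives were limma 3.58.1 after voom, DESeq2 1.42.0, other scalings and filters, a robust fit, the replicate number as a block, leaving out single libraries and a looser threshold (0.05). The block with scaling by library size, and the mitochondrial median without mt-Co3, were added after seeing the data. At this depth members had 112 reads or more in every library, except mt-Co3 and Ndufa4l2. Just under the minimum of 10 reads were mt-Atp6 (lowest library 8) and mt-Co2, Cox4i2 and Cox7a1 (6), and just above it Ndufa4l2 (16) and mt-Co3 (20).

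Both groups carry replicate numbers 1 to 3 in the labels. Deviations from the group mean, over 10908 genes whose log2 CPM averaged 3 or more, had correlations of 0.392, 0.189 and 0.461 for equal numbers and −0.393 to 0.108 for others, so the numbers were taken as pairs, and blocked values are given beside the members and lists whose calls they change. No 2 libraries differed by less than sampling noise.

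The members and lists were chosen with earlier results of these data known. Named are all mitochondrially encoded subunits, called nuclear members, the most abundant per kb in each complex, isoform pairs and, in each pathway list, up to 2 called genes with the smallest p. Sdhb, Sdhc, Sdhd, the members called with the block, Atp5b, Ndufb4, Atp5l, Tssk6, Mrpl9, Rps7, Ttc19, Coq8a, Cs, Idh3a, Nfe2l1, Uqcr10 and the cell type markers were named after their values were seen. Shares of 50-base stretches compare transcripts of GENCODE vM21.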

Additional observations from a re-analysis of the deposited data

How the results depend on the processing

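Ndufa13 stayed lower and past the threshold under every alternative tried, with adjusted p from 3.2e-09 to 0.00506. The number of nuclear members called was 1, and it became 2 with DESeq2, upper-quartile scaling, no filter or the robust fit, 3 with library size alone, 9 with the replicate block, 10 with the block and library size alone, and 6 at a threshold of 0.05. Without each library it was 1 to 2, the 2 arising without shCtrl replicate 3 and without shPla2g4e replicate 2. No mitochondrially encoded member was called except with the block and library size alone together, which called 5. The number of genes called in all, 1419, was 3395 with the block, which kept all 1419, 3372 with the block and library size alone, 2813 at a threshold of 0.05, and 695 to 1613 without each library, falling by over 1.5 times without shCtrl replicate 1 or 2 or shPla2g4e replicate 1 or 2. The median of nuclear members rose from 0.03 to 0.1033 with library size alone and to 0.1055 with the block added, close to the 0.103 of all genes under the former. With TMM scaling, the block changed no call of a member beyond those given with their results. The causes of these changes were not tested.

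Leaving out a library changed the sign of 33 of the 87 members, none of them called with or without the block. The named members whose sign changed under some alternative follow. mt-Nd1 (main value −0.0032) was 0.0006 with voom, 0.0318 with upper-quartile scaling, 0.0668 with library size alone, 0.0154 with at least 10 reads in every library, 0.0079 with filterByExpr, 0.0008 with the block, 0.0752 with the block and library size alone, and −0.11 to 0.1382 without each library. mt-Cytb was −0.0064 with DESeq2 and with its size factors. Atp5a1 was 0.0043 with upper-quartile scaling, 0.0448 with library size alone and 0.0451 with the block added, and Cox4i1 was 0.0087 with the latter. Without each library, mt-Cytb ranged from −0.0719 to 0.1136, mt-Co3 from −0.073 to 0.4067, Sdha from −0.0263 to 0.049, Uqcr11 from −0.0194 to 0.0643, Cox6a1 from −0.0146 to 0.1049, Cox4i1 from −0.1348 to 0.0477, Cox6b2 from −0.1296 to 0.3894, Atp5g3 from −0.0186 to 0.083, Atp5a1 from −0.0717 to 0.0068 and Ndufc2 from −0.0574 to 0.0537.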

Other observations

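Ndufb1-ps, annotated as a non-coding RNA in GENCODE vM21 and therefore not a member, had 511, 693 and 714 reads in shCtrl and 844, 850 and 593 reads in shPla2g4e libraries, as many as several coding subunits of complex I (log2 fold change 0.25, edgeR adjusted p = 0.199). Its groups overlapped. The other 11 genes with a respiratory chain symbol that are not protein coding had at most 5 reads in a library. The reads of Gm28438, the chromosome 1 copy of mt-Nd3, were 165, 231 and 317 in shCtrl and 355, 247 and 188 in shPla2g4e libraries, against 0 to 4 for mt-Nd3 itself. Where in that copy they lay was not examined, as the files hold counts per gene.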
